A study of Mus musculus with 4 samples.

Results

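The matrix metalloproteinase (MMP), ADAMTS and TIMP genes of the mouse were described in maps of accessible chromatin from 4 cell populations. The genes were chosen by symbol alone, as RefSeq protein-coding genes on chromosomes 1 to 19 named Mmp plus a number (a final letter allowed), Adamts plus a number or Timp plus a number. This gave 45 of 20665 protein-coding genes on those chromosomes, namely 23 MMP, 19 ADAMTS and 3 TIMP genes. Open chromatin was mapped by ATAC-seq, where a transposase cuts accessible DNA and tags it for sequencing, on 50000 cells with 12 PCR cycles and 1 library per population, per the labels. The first population, called the intermediate here, came from fibroblasts that carry a Rosa26-TdTomato reporter, a Nanog-driven CreER and a Col1a-OSKM transgene (Oct4, Sox2, Klf4 and Myc) on a B6/129 background. Doxycycline and 4-hydroxytamoxifen were given between days 1 and 9, a JAK1 inhibitor was added (0.5 µM), and tdTomato+ cells were sorted, so they were selected for past activity of the Nanog driver. The labels give 6 days in a first medium and 3 days in a second. The title of that sample gives day 9 and its source field day 6. Its title also names neural stem cells as the target of the conversion. The intermediate is thus not labelled as a step towards pluripotency. The other populations were induced pluripotent stem cells (iPSC) of the strain A12 (Mbd3 flox/-), v6.5 embryonic stem cells (ESC) and mouse embryonic fibroblasts (MEF), again of A12 (Mbd3 flox/-). Only iPSC and MEF share a strain label, so strain and cell state cannot be told apart in the other comparisons. The intermediate is labelled as free of MEF feeders, and the labels used here do not say whether iPSC and ESC were.

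MMPs are zinc proteases, secreted or held at the cell membrane, that cleave collagens, gelatin and other matrix proteins and are made as inactive precursors. ADAMTS proteases are secreted relatives that carry thrombospondin repeats, and their substrates include the proteoglycans aggrecan and versican, procollagens and von Willebrand factor. TIMPs are small proteins that bind the active site of these enzymes, and TIMP2 also helps MMP14 to activate pro-MMP2 at the cell surface. Fibroblasts are a main source of several of these proteins, as they build and remodel connective tissue.

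Each library is represented by the authors' list of peaks with a start, an end, a summit and a height, a whole-number signal with no stated scaling between libraries. Heights of several libraries at a site are given below as listed and do not measure a difference between libraries. On chromosomes 1 to 19 the lists held 130631 peaks in the intermediate, 128931 in iPSC, 125858 in ESC and 155064 in MEF. The read depth behind them is unknown, and a gene without a listed peak is not thereby shown to be inaccessible. With 1 library per population there was no replicate check and no test, and intervals given below are Wilson 95% intervals that cover counting error only. As a check of the labels, an end peak (a peak within 1 kb of either end of the gene body) was listed at 4 of 9 fibroblast markers in the intermediate, 5 in iPSC, 7 in ESC and 9 in MEF. The same count for 9 pluripotency markers was 5 in the intermediate, 9 in iPSC, 7 in ESC and 0 in MEF. For 6 epithelial markers it was 6, 6, 6 and 1 in that order. Among 5 macrophage and blood markers it was 2, 2, 2 and 3, and among 4 endothelial markers 1, 2, 1 and 1. Pou5f1, which encodes Oct4, had 0 peaks within 20 kb in the intermediate, 27 in iPSC, 4 in ESC and 0 in MEF. By number of peaks within 20 kb, 6 of the 9 fibroblast markers had at least 2-fold fewer in the intermediate than in MEF, the same direction as many of the protease genes below, and the part of a changed cell mixture in those results was not tested. In bulk libraries a smaller share of cells with an open site and less opening per cell cannot be told apart.

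Peaks over and within 20 kb of the 45 genes took a larger share of the MEF list than of the other 3. The intermediate listed 343 of them, 0.263% of its list (0.236 to 0.292), iPSC 302, 0.234% (0.209 to 0.262), ESC 330, 0.262% (0.235 to 0.292), and MEF 567, 0.366% (0.337 to 0.397). For scale, peaks within 20 kb of any protein-coding gene made up 80.1% of the list in the intermediate, 72.2% in iPSC, 75.3% in ESC and 79.6% in MEF. The families differed in this. ADAMTS genes had 165 peaks in the intermediate against 296 in MEF, TIMP genes 29 against 76, and MMP genes 149 against 195. As a share of the lists, ADAMTS genes took 0.126% (0.108 to 0.147) in the intermediate and 0.191% (0.170 to 0.214) in MEF, while MMP genes took 0.114% (0.0972 to 0.134) and 0.126% (0.109 to 0.145), intervals that overlap.

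**Figure D1:**
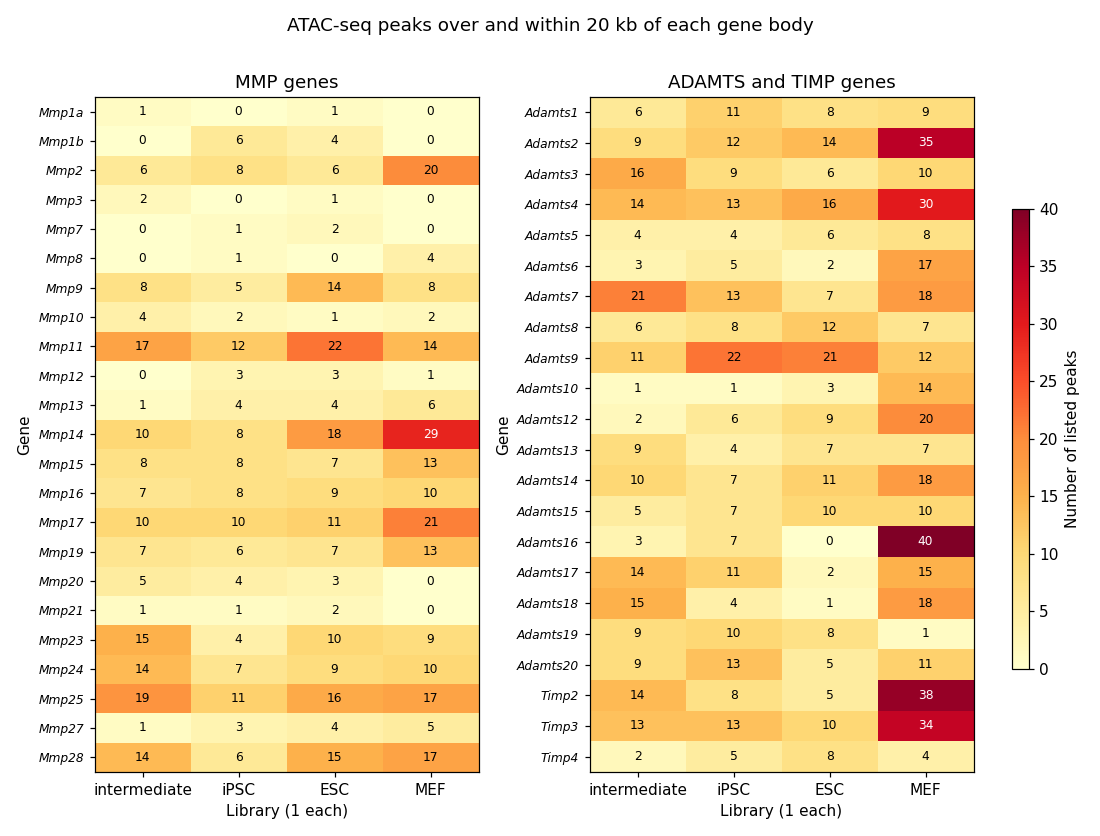
Number of listed ATAC-seq peaks over and within 20 kb of each of the 45 gene bodies (rows) in the 4 libraries (columns, 1 library each), with the colour giving the same number from 0 to 40. Adamts16, Timp2, Adamts2 and Timp3 have 34 to 40 peaks in MEF and 14 or fewer in each other library, and Adamts19 has 1 in MEF and 8 to 10 elsewhere.

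A gene was called with fewer or more peaks where the number of peaks plus 1 differed by at least 2-fold between libraries. In the intermediate 15 of the 45 genes had fewer peaks than in MEF, where 18.7% of all protein-coding genes did, and 5 had more, where 12.9% of all genes did. The genes with fewer were Mmp2, Mmp8, Mmp12, Mmp13, Mmp14, Mmp17, Mmp27, Adamts2, Adamts4, Adamts6, Adamts10, Adamts12, Adamts16, Timp2 and Timp3. Those with more were Mmp1a, Mmp3, Mmp20, Mmp21 and Adamts19. The only peak of the intermediate counted at Mmp1a lay in the body of Mmp3 and counted for both. By nearest gene Mmp1a had 0 in the intermediate and 0 in MEF. The median log2 ratio of intermediate over MEF was -0.46 for the 45 genes and 0.00 for all genes. The MEF list is longer. With all lists reduced to equal length 13 of the 15 genes kept the call, while 14.4% of all genes had it. The median was then 0.00 for the 45 genes as for all genes. Accessible stretches are often divided into neighbouring sub-peaks in these lists, and after joining peaks at most 10 bp apart 11 of the 15 kept the call while 14.6% of all genes had it. The calls of Adamts4, Mmp14, Mmp17 and Timp2 ended there, with log2 ratios of -0.36, -0.42, -0.42 and -0.92.

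Mmp2, which encodes gelatinase A (chromosome 8, 92827290 to 92853421 on mm10), had 6 peaks in the intermediate, 8 in iPSC, 6 in ESC and 20 in MEF. Within the gene body the numbers were 1, 2, 1 and 13 in that order. Of the 20 MEF peaks 4 overlapped a peak of the intermediate, 6 one of iPSC and 5 one of ESC. The tallest MEF peak at the gene (92847141 to 92847861, height 231, taller than 98.8% of the MEF list by rank) overlapped no peak of another library. A peak at one end of Mmp2 was listed in all 4 libraries, with heights of 31, 127, 38 and 92. Outside the gene body, 5.68 kb away, a peak of the intermediate (92821061 to 92821610, height 80) overlapped peaks of iPSC and ESC with heights of 68 and 116 and none of MEF. Mmp9, which encodes the other gelatinase, had 8 peaks in the intermediate, 5 in iPSC, 14 in ESC and 8 in MEF. A peak within 1 kb of an end, of height 38, was listed in MEF alone. However, a MEF peak of height 38 overlapped the tallest peaks of the intermediate, iPSC and ESC, of heights 82, 79 and 109. Those lay 1.1, 1.24 and 1.11 kb from the gene body, so the MEF-only call may rest on the edge of the 1 kb window.

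Mmp14, a membrane-anchored MMP that cleaves collagen and activates pro-MMP2 (chromosome 14, 54431598 to 54442456), had 10 peaks in the intermediate, 8 in iPSC, 18 in ESC and 29 in MEF. Its promoter window was under a peak in ESC and MEF, with heights of 35 and 83, and not in the intermediate or iPSC. In the gene body the intermediate and iPSC had 0 peaks, ESC 2 and MEF 11, and the tallest of these in MEF (54435041 to 54435781, height 106) was in no other list. Of the 29 MEF peaks 9 overlapped a peak of the intermediate, 7 one of iPSC and 13 one of ESC. The genes Slc7a7 and Mrpl52 lie within 20 kb of Mmp14, and of the peaks nearest to Mmp14 itself the intermediate had 4, iPSC 2, ESC 7 and MEF 20. After joining sub-peaks the whole window had 5 in the intermediate, 6 in iPSC, 9 in ESC and 7 in MEF. Mmp17, whose product is held at the membrane by a lipid anchor, had 10, 10, 11 and 21 peaks in the same order, with an end peak in every library. Mmp15, Mmp16 and Mmp24, further membrane-type genes, had 7 to 14 peaks in the intermediate and 10 to 13 in MEF, and an end peak in all 4 libraries. The tallest end peak of Mmp24 lay at its far end in each library, over BC029722. Over the Mmp24 promoter window the intermediate, iPSC and ESC had a peak, of heights 34, 33 and 12, and MEF had none. Mmp25, the remaining gene of this class, had 19, 11, 16 and 17 peaks, and its end peaks were listed in iPSC and ESC only.

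The 10 MMP genes of chromosome 9 form a cluster of 427 kb (7272514 to 7699585) that holds the collagenases Mmp1a, Mmp1b, Mmp8 and Mmp13, the stromelysins Mmp3 and Mmp10, the macrophage elastase Mmp12, the matrilysin Mmp7, the enamel protease Mmp20 and Mmp27. Counted over its whole span with 20 kb on each side, the intermediate listed 19 peaks, iPSC 21, ESC 26 and MEF 14, which is 4.07, 4.50, 5.57 and 3.00 per 100 kb. End peaks were at different genes in each library, with 2 genes in the intermediate (Mmp3 and Mmp20), 0 in iPSC, 0 in ESC and 4 in MEF (Mmp8, Mmp10, Mmp13 and Mmp27). Those 4 MEF genes had no end peak in any other library. Mmp1a, Mmp1b, Mmp7 and Mmp12 had none in any of the 4. An end peak can lie at either end of a gene. No library listed a peak over the promoter windows, described below, of Mmp3, Mmp8 and Mmp27. Their end peaks thus do not describe their promoters. Mmp12 and Mmp1b, Mmp3 and Mmp1a, Mmp8 and Mmp27, and Mmp20 and Mmp7 are neighbours within 20 kb, so a peak between them counts for both.

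**Figure D2:**
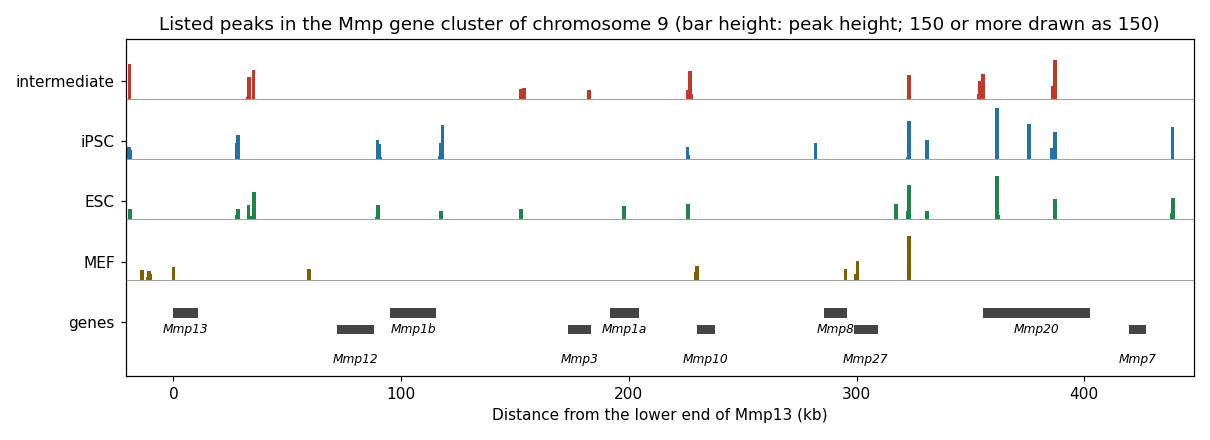
Listed peaks across the Mmp cluster of chromosome 9, with distance in kb from the lower end of Mmp13 on the x axis, 1 row per library and the genes drawn underneath. Bars give peak height, with 150 or more drawn as 150, and narrow peaks are drawn at a minimum width; 1 tall peak near 323 kb is shared by all 4 libraries, while the peaks at the Mmp13 and Mmp10 starts are in MEF alone.

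The start sites of these genes were looked at in RefSeq promoter sequences of GRCm38.p6, which run from 250 bases before to 50 after a gene's start and were at hand for 31 of the 45 genes. Each was searched on both strands for the AP-1 motif, spelled TGANTCA. The other motifs were the TATA box (TATAAA) and the GC box, spelled GGGCGG. An ETS-type motif was searched as CAGGAAG. No pair of these overlapped in the promoters printed here. A promoter of 8 of the 10 cluster genes held the AP-1 motif and of 9 of 10 the TATA box, while the GC box was in 0 of 10. Of the other 21 genes 0 held the AP-1 motif, 2 the TATA box and 17 the GC box. The ETS-type motif was in 4 of the 10 and in 7 of all 31. Over 16457 protein-coding genes with a promoter in the table, 8.23% held the AP-1 motif, 15.0% the TATA box, 50.3% the GC box and 14.3% the ETS-type motif. These are matches of letters and not measured binding. The 3 cluster promoters over which any library listed a peak are shown first, in lower case with matches to the 4 motifs in capitals. The MEF list had a peak over the Mmp13 promoter (7272264 to 7272563, plus strand, height 36) and over the Mmp10 promoter (7502092 to 7502391, plus strand, tallest height 39), and the intermediate list one over the Mmp20 promoter (7627981 to 7628280, plus strand, height 74). In each the capitals are an AP-1 and a TATA box match, which start at -35 and -16 in Mmp13, -63 and -29 in Mmp10 and -95 and -58 in Mmp20, counted from the annotated start.
Mmp13: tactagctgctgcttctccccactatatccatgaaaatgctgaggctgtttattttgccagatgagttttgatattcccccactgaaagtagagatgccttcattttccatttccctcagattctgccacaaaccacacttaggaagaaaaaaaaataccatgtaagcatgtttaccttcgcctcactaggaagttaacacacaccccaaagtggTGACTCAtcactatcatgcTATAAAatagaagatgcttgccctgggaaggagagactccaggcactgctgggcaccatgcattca
Mmp10: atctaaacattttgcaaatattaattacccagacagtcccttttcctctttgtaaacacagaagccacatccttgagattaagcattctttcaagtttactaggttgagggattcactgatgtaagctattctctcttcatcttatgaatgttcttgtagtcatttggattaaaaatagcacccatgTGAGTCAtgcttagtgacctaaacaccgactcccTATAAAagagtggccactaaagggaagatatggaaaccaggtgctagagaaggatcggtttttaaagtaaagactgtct
Mmp20: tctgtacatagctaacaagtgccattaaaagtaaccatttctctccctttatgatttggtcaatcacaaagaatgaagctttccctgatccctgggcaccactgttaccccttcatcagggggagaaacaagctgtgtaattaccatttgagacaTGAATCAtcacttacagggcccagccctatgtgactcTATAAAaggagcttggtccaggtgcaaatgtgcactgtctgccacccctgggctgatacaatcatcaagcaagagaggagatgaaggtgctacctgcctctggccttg

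Promoters outside the cluster were more often under a peak. Over all 31 genes a promoter window was overlapped by a peak at 15 genes in the intermediate, 16 in iPSC, 18 in ESC and 18 in MEF, which is 48.4, 51.6, 58.1 and 58.1%. Over all genes in the table the shares were 60.5, 63.7, 65.9 and 62.2% in that order. Without the cluster genes the counts were 14, 16, 18 and 16 of 21. The next 3 sequences show promoters with different patterns. That of Adamts12 (chromosome 15, 11064523 to 11064822, plus strand) was under a peak in iPSC, ESC and MEF, with heights of 82, 42 and 68, and not in the intermediate. That of Timp4 (chromosome 6, 115252156 to 115252455, minus strand) was under a peak in iPSC and ESC alone, with heights of 65 and 93. That of Timp3 (chromosome 10, 86300162 to 86300461, plus strand) had one in every library, of height 75 for the intermediate, 187 for iPSC, 84 for ESC and 88 for MEF. Capitals mark 2 ETS-type matches in Adamts12, 1 in Timp4, and 1 ETS-type and 2 GC box matches in Timp3, on either strand.
Adamts12: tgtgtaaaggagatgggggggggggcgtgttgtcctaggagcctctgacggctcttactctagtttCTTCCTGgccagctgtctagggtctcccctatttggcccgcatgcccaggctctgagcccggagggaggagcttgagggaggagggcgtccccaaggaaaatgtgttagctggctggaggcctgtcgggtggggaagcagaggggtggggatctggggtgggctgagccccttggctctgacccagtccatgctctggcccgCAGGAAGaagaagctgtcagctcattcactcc
Timp4: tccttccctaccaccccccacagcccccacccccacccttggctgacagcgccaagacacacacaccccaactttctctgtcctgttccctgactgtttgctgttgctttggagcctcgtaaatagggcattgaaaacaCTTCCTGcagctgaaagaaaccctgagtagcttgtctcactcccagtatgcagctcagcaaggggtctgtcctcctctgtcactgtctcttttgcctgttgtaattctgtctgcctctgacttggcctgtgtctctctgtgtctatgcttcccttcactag
Timp3: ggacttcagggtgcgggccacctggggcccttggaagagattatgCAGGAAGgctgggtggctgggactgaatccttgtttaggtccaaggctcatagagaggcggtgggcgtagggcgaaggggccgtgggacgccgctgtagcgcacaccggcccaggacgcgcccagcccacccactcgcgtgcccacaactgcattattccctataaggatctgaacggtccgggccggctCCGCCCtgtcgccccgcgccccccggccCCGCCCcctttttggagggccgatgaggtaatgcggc

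Of the other cluster members, Mmp13, a collagenase of cartilage and bone, had 1 peak within 20 kb in the intermediate, 4 in iPSC, 4 in ESC and 6 in MEF. The single peak of the intermediate (7252741 to 7253680, height 103) lay 18.8 kb from the gene body and overlapped peaks of iPSC and ESC, with heights of 36 and 32, and none of MEF. Mmp20 had 5 peaks in the intermediate, 4 in iPSC, 3 in ESC and 0 in MEF, and its tallest in the intermediate (7659441 to 7660000, height 115) lay in the gene body and overlapped peaks of iPSC and ESC, with heights of 81 and 60. A taller peak in the same gene body, of height 393 in iPSC (7633641 to 7634500) and 126 in ESC, had no counterpart in the intermediate or MEF. Mmp10 had 4 peaks in the intermediate, 2 in iPSC, 1 in ESC and 2 in MEF, and the tallest of the intermediate (7499011 to 7499801, height 82), 2.54 kb outside the gene, was in no other list. Mmp3 had 2 peaks in the intermediate, 0 in iPSC, 1 in ESC and 0 in MEF, so its call of more peaks rests on 2 peaks. Mmp8, a collagenase known from neutrophils, had 0, 1, 0 and 4 peaks, and Mmp27 1, 3, 4 and 5. Mmp1b had 0 in the intermediate, 6 in iPSC, 4 in ESC and 0 in MEF, Mmp1a 1, 0, 1 and 0, and Mmp7 0, 1, 2 and 0. Calls on counts this small rest on single peaks. Mmp12, with 0 peaks in the intermediate and 1 in MEF, had the opposite sign with a window of 50 kb, a log2 ratio of 1.32, and Mmp21 on chromosome 7, with 1 in the intermediate and 0 in MEF, likewise had -0.14.

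Further MMP genes lie apart from the cluster. Mmp11, or stromelysin-3, had 17 peaks in the intermediate, 12 in iPSC, 22 in ESC and 14 in MEF, with an end peak in each library. Its tallest MEF peak (chromosome 10, 75930111 to 75930831, height 124) lay in the gene body and overlapped an iPSC peak of height 29 and none of the intermediate or ESC. Mmp19 had 7, 6, 7 and 13 peaks and an end peak of height 48 in MEF alone. Mmp23 and Mmp28 had 15 and 14 peaks in the intermediate, 4 and 6 in iPSC, 10 and 15 in ESC, and 9 and 17 in MEF. Both ends of Mmp23 lie within 1 kb of an end of another gene, so its end peaks cannot be assigned to it.

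Of the 19 ADAMTS genes 6 had fewer peaks in the intermediate than in MEF, as did 18.7% of all genes, and 1, Adamts19, had more, as did 12.9% of all genes. Among the 7 genes grouped as proteoglycan-cleaving, only Adamts4 met the call. Adamts1, which cleaves versican and aggrecan, had 6 peaks in the intermediate, 11 in iPSC, 8 in ESC and 9 in MEF. Adamts5, an aggrecanase, had 4, 4, 6 and 8, and Adamts9 had 11, 22, 21 and 12. Adamts8 and Adamts15, neighbours on chromosome 9, had 6 and 5 in the intermediate, 8 and 7 in iPSC, 12 and 10 in ESC, and 7 and 10 in MEF. Adamts4, the other well-known aggrecanase, had 14, 13, 16 and 30 peaks. Its window holds 5 other genes, and of the peaks nearest to Adamts4 itself 3 were in the intermediate, 2 in iPSC, 5 in ESC and 13 in MEF. Its end peaks were listed in the intermediate, with a tallest height of 47, and in MEF, with 103, and in neither pluripotent library. Adamts20, a gene needed for pigment cell development in the mouse, had 9, 13, 5 and 11 peaks and an end peak in the intermediate alone. Its start in the promoter table lies inside the gene body used here, and over that window all 4 libraries had a peak, with heights of 77, 319, 135 and 115, so that its end peak does not describe its promoter.

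The procollagen N-proteinases, which trim the amino-terminal propeptide from fibrillar procollagens, had 35 peaks in the intermediate, 28 in iPSC, 31 in ESC and 63 in MEF. Adamts2 (chromosome 11, 50602085 to 50807573) accounted for 9, 12, 14 and 35 of them. In its gene body the numbers were 7, 9, 10 and 32, and the tallest MEF peak without an intermediate peak (50622001 to 50623020, height 99) overlapped no iPSC or ESC peak either. Its promoter window was under a peak in every library, with heights of 62, 54, 61 and 74, and the gap in number lay in the body of the gene. Adamts14 had 10 peaks in the intermediate, 7 in iPSC, 11 in ESC and 18 in MEF. Adamts3 had 16, 9, 6 and 10, most in the intermediate, and 9 of the 16 peaks of the intermediate were in no other list.

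Adamts7 and Adamts12, whose products cleave cartilage oligomeric matrix protein, differed from each other. Adamts12 (chromosome 15, 11064773 to 11349232) had 2 peaks in the intermediate, 6 in iPSC, 9 in ESC and 20 in MEF, and 0 of the 20 MEF peaks overlapped a peak of the intermediate, against 3 each for iPSC and ESC. Both peaks of the intermediate were in no other list. Adamts12 was the only 1 of the 45 genes with an end peak in iPSC, ESC and MEF and none in the intermediate. That is 2.22% of the 45, against 3.26% of all protein-coding genes. Adamts7 had 21, 13, 7 and 18 peaks, and its tallest in the intermediate (chromosome 9, 90172711 to 90174041, height 401, taller than 99.8% of that list by rank) overlapped a MEF peak of height 49 and none of iPSC or ESC. Of those 21 peaks 8 were in no other list.

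Among the remaining ADAMTS genes Adamts16 had the widest gap. It had 3 peaks in the intermediate, 7 in iPSC, 0 in ESC and 40 in MEF, 37 of the 40 within the gene body (chromosome 13, 70727798 to 70841845). Only 1 of the 40 overlapped a peak of the intermediate and 0 overlapped a peak of iPSC or ESC. The tallest MEF peak (70713071 to 70714010, height 161) lay 13.8 kb outside the gene and was the overlapping one, where the intermediate had a height of 35. After joining sub-peaks there were 2, 4, 0 and 19. No end peak was listed in MEF, the intermediate or ESC, and iPSC had 3. Adamts6 had 3, 5, 2 and 17 peaks and Adamts10, whose product is linked to fibrillin microfibrils, 1, 1, 3 and 14, and both had an end peak in every library.

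At Adamts18 counts and positions parted, while at Adamts19 they went together. Adamts18 (chromosome 8, 113697123 to 113849343) had 15 peaks in the intermediate, 4 in iPSC, 1 in ESC and 18 in MEF, numbers that are alike in the intermediate and MEF. Only 4 of the 18 MEF peaks overlapped a peak of the intermediate, and 11 of the 15 peaks of the intermediate were in no other list. The tallest of these (113761061 to 113761660, height 130) lay within the gene body. Adamts17 likewise had 14, 11, 2 and 15 peaks, with 9 of the 14 in no other list. Adamts19 (chromosome 18, 58835992 to 59053682) had 9, 10, 8 and 1 peaks. Of the 9 in the intermediate 8 overlapped a peak of iPSC, 7 one of ESC and 0 one of MEF. At the tallest of them (59026061 to 59026881) the heights were 201, 111 and 60 in the intermediate, iPSC and ESC. Adamts19 was the only 1 of the 45 genes with an end peak in the intermediate, iPSC and ESC and none in MEF. That is 2.22% of the 45, against 2.98% of all protein-coding genes. Adamts13, which cleaves von Willebrand factor, had 9, 4, 7 and 7 peaks and an end peak in every library. No library listed a peak over its promoter window. Its tallest end peak in the intermediate, of height 133, lay 36.6 kb from its start and overlapped the gene Cacfd1.

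**Figure D3:**
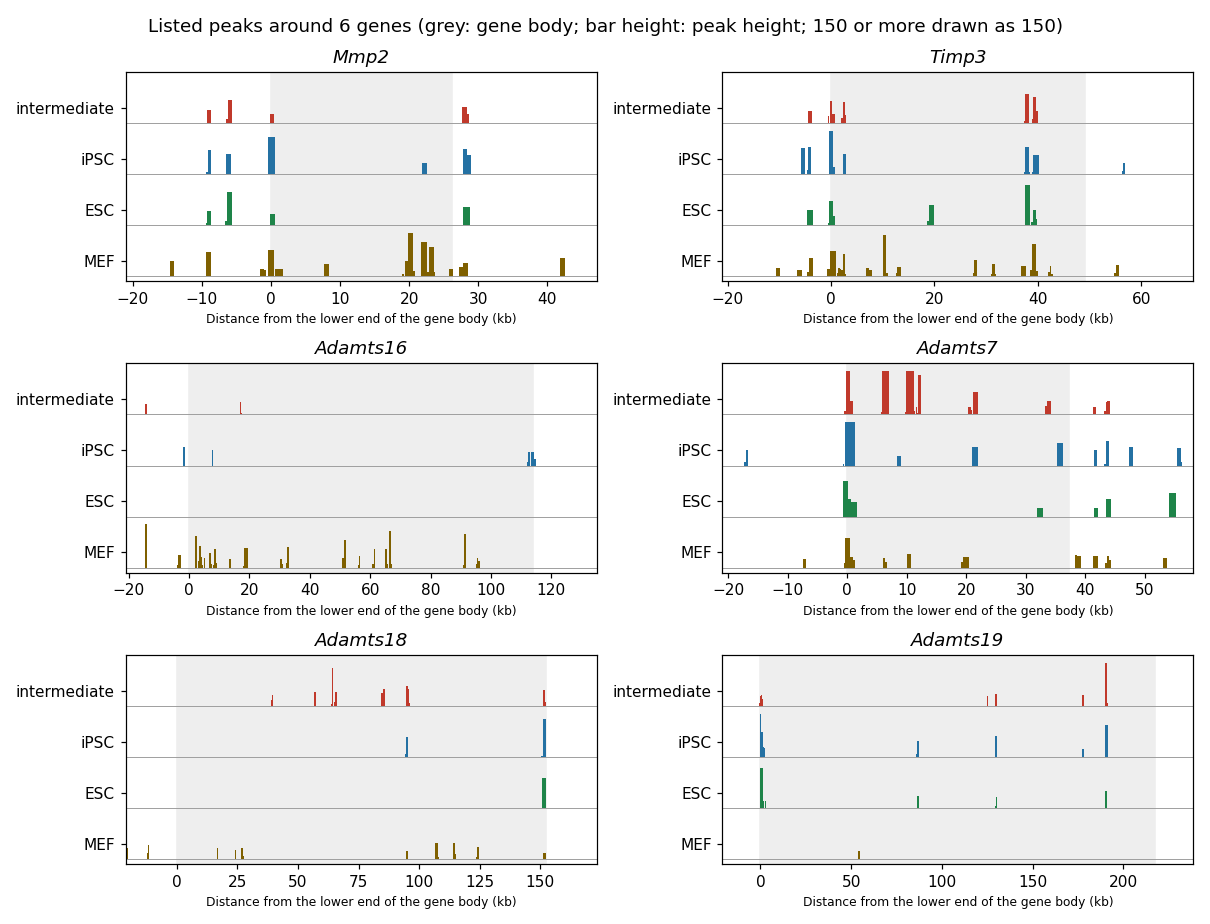
Listed peaks around Mmp2, Timp3, Adamts16, Adamts7, Adamts18 and Adamts19, with distance in kb from the lower end of the gene body on the x axis and 1 row per library. Grey marks the gene body and bars give peak height, with 150 or more drawn as 150 and narrow peaks at a minimum width. The bodies of Mmp2, Timp3 and Adamts16 hold more peaks in MEF than in each other library. At Adamts18 most peaks of the intermediate and MEF stand at different places, with 4 of the 18 MEF peaks overlapping the intermediate.

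The inhibitor genes Timp2 and Timp3 had many more peaks in MEF than in any other library. Timp2 (chromosome 11, 118301061 to 118355411) had 14 in the intermediate, 8 in iPSC, 5 in ESC and 38 in MEF. Of the 38 MEF peaks 12 overlapped a peak of the intermediate, 6 one of iPSC and 3 one of ESC. The tallest MEF peak without a counterpart in any other library (118364981 to 118366040, height 188) lay 9.57 kb from the gene body. Every library had a peak over the promoter window, of height 39, 36, 48 and 126 in that order. Timp3 (chromosome 10, 86300412 to 86349505), which lies within the gene Syn3 and whose protein binds to the matrix, had 13, 13, 10 and 34 peaks. Here 11 of the 34 MEF peaks overlapped a peak of the intermediate, 12 one of iPSC and 8 one of ESC, and the tallest MEF peak (86310391 to 86311101, height 143) overlapped none. Joined, Timp3 had 5, 8, 6 and 15 and Timp2 8, 5, 2 and 16. Timp4 (chromosome 6, 115244444 to 115252205) differed from both, with 2, 5, 8 and 4 peaks and an end peak in iPSC and ESC only. Its tallest MEF peak (115271851 to 115272351, height 112) lay 19.6 kb away inside Syn2 and was in no other list.

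End peaks were listed at about as many of the 45 genes as of all genes. They were at 30 genes in the intermediate, 66.7% (52.1 to 78.6), where 63.3% of all protein-coding genes had one. The other counts were 30 in iPSC, 66.7% (52.1 to 78.6) against 66.1% of all genes, 29 in ESC, 64.4% (49.8 to 76.8) against 68.1%, and 33 in MEF, 73.3% (59.0 to 84.0) against 65.5%. By family, 17 of 19 ADAMTS genes had an end peak in the intermediate, 89.5% (68.6 to 97.1), and 16 in MEF, 84.2% (62.4 to 94.5). Of 23 MMP genes 11 had one in the intermediate, 47.8% (29.2 to 67.0), and 15 in MEF, 65.2% (44.9 to 81.2). The intervals of these families overlap in MEF. The MMP genes include the 10 of the chromosome 9 cluster, of which 2 had an end peak in the intermediate and 4 in MEF. In 25 genes an end peak was listed in all 4 libraries, 55.6% against 54.8% of all genes. In 6 genes, Mmp8, Mmp9, Mmp10, Mmp13, Mmp19 and Mmp27, it was in MEF alone, 13.3% against 2.81% of all genes. Their heights in MEF ran from 17 to 48. Another 3, Mmp3, Mmp20 and Adamts20, had one in the intermediate alone, 6.67% against 1.57%. Timp4 and Mmp25 had one in iPSC and ESC alone, 4.44% against 2.41%.

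**Figure D4:**
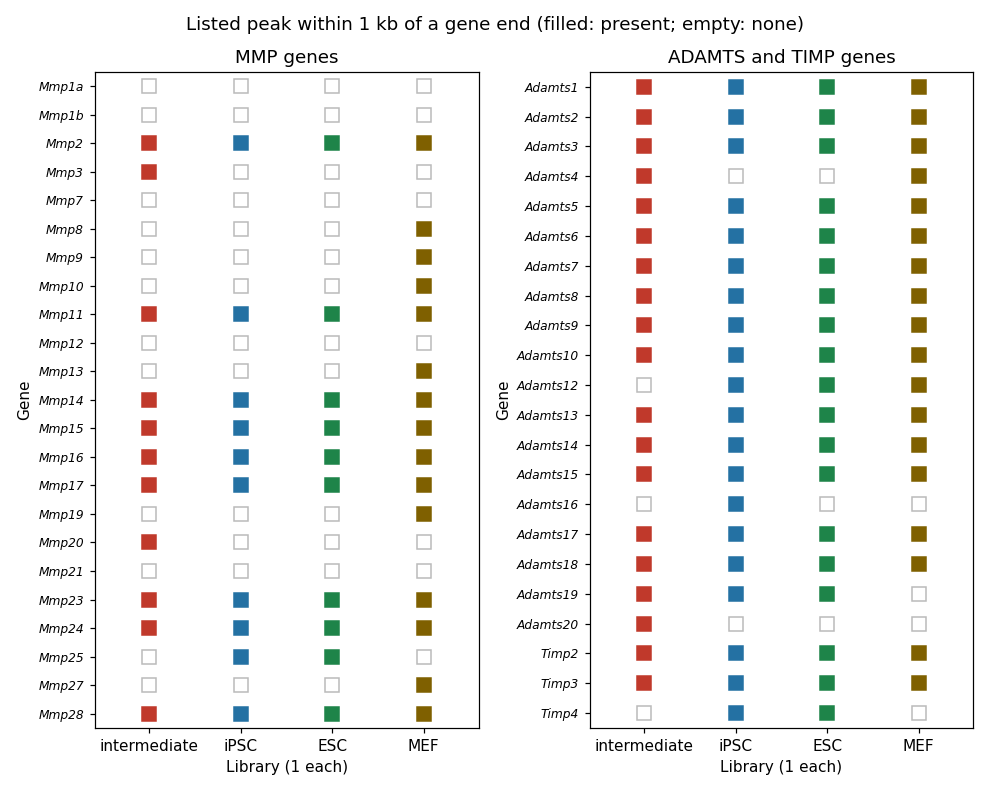
Presence of a listed peak within 1 kb of either end of the gene body for the 45 genes (rows) in the 4 libraries (columns, 1 library each), filled where at least 1 peak was listed. The 6 genes filled in MEF alone are all MMP genes, and 14 of the 19 ADAMTS genes are filled in every column.

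Set against MEF, 7 of the 45 genes had lost an end peak in the intermediate, where 7.77% of all genes had, and 4 had gained one, where 5.58% had. The 7 were Mmp8, Mmp9, Mmp10, Mmp13, Mmp19, Mmp27 and Adamts12, and the 4 Mmp3, Mmp20, Adamts19 and Adamts20. At Mmp3, Mmp8, Mmp27 and Adamts20 these changes were not at the promoter window. For Mmp9, Mmp19 and Adamts19 no promoter window was at hand, and the loss at Mmp9 may rest on the edge of the 1 kb window. In iPSC 7 genes had lost one (6.49% of all genes) and 4 had gained one (7.09%). In ESC 7 had lost one (4.59%) and 3 had gained one (7.22%). The iPSC and ESC comparisons share the MEF library with the first. In iPSC the genes that had lost one were Mmp8, Mmp9, Mmp10, Mmp13, Mmp19, Mmp27 and Adamts4, and those that had gained one Mmp25, Adamts16, Adamts19 and Timp4. In ESC the lost ones were at Mmp8, Mmp9, Mmp10, Mmp13, Mmp19, Mmp27 and Adamts4, and the gained ones at Mmp25, Adamts19 and Timp4. By number of peaks, 17 genes had fewer in iPSC than in MEF (26.9% of all genes) and 6 had more (14.4%). After joining sub-peaks 8 of the 45 had fewer, against 15.5% of all genes, and with lists of equal length 11, against 20.4% of all genes. In ESC 13 had fewer (20% of all genes) and 8 more (14.1%). Adamts12 had 6 peaks in iPSC and 9 in ESC, against 20 in MEF, and Adamts6 had 5 in iPSC and 2 in ESC, against 17 in MEF. Adamts18 and Adamts17 had 1 and 2 in ESC, against 18 and 15 in MEF.

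Relative to iPSC the intermediate had lost an end peak at 4 genes (7.46% of all genes), Timp4, Mmp25, Adamts12 and Adamts16, and gained one at 4 (4.67%), Mmp3, Mmp20, Adamts4 and Adamts20. Relative to ESC it had lost one at Timp4, Mmp25 and Adamts12, which is 3 genes (8.07%), and gained one at 4 (3.25%), Mmp3, Mmp20, Adamts4 and Adamts20. By number of peaks it had fewer than iPSC at 9 genes (14.5%) and more at 6 (20.1%). It had fewer than ESC at 8 genes (14.5%) and more at 7 (13.3%), which were Mmp10, Adamts3, Adamts7, Adamts16, Adamts17, Adamts18 and Timp2. Adamts18 had 15 peaks in the intermediate against 4 in iPSC and 1 in ESC, and Adamts17 had 14 against 2 in ESC.

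Most MEF peaks at these genes had no counterpart in the other lists. Of the 567 MEF peaks 35.1% (31.3 to 39.1) overlapped a peak of the intermediate, 31.9% (28.2 to 35.9) one of iPSC and 34.6% (30.8 to 38.6) one of ESC, while 54.7% (50.6 to 58.7) overlapped none. Over MEF peaks at all protein-coding genes the values were 39.2, 37.1, 41.3 and 47.8%. By family, 42.1% (35.3 to 49.1) of MEF peaks at MMP genes, 31.4% (26.4 to 36.9) at ADAMTS genes and 31.6% (22.2 to 42.7) at TIMP genes overlapped a peak of the intermediate. For ESC the TIMP value was 17.1% (10.3 to 27.1), below the 44.1% (37.3 to 51.1) at MMP genes. Neighbouring peaks of 1 library are not independent, so these intervals are too narrow.

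**Figure D5:**
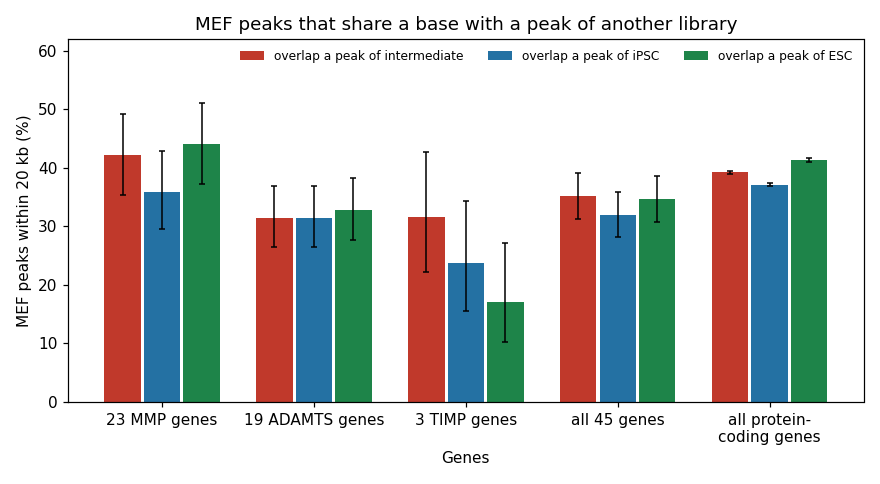
Percentage of MEF peaks within 20 kb that share at least 1 base with a peak of the intermediate, iPSC or ESC, for the 3 families, all 45 genes and all protein-coding genes. Bars start at 0 and error bars are Wilson 95% intervals; the ADAMTS and TIMP values lie between 17.1 and 32.8%, below the 37.1 to 41.3% over all protein-coding genes.

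In the other direction, 50.1% (44.9 to 55.4) of the 343 peaks of the intermediate overlapped a MEF peak, 54.8% (49.5 to 60.0) an iPSC peak and 56.6% (51.3 to 61.7) an ESC peak. Over all genes these were 45.9, 49.8 and 54.8%. Peaks in no other list made up 27.4% (23 to 32.4), against 32.0% over all genes. They were 20.8% (15.1 to 28) at MMP genes, 36.4% (29.4 to 43.9) at ADAMTS genes and 10.3% (3.58 to 26.4) at TIMP genes. Peaks shared with iPSC or ESC and not with MEF were 22.4% (18.4 to 27.2), and those shared with MEF and with neither pluripotent library 9.62% (6.93 to 13.2), against 22.1 and 7.12% over all genes. At TIMP genes 24 of the 29 peaks of the intermediate overlapped a MEF peak.

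Other genes of pericellular proteolysis were counted in the same way. Their calls by number of peaks in the intermediate against MEF are read against the 18.7% of all protein-coding genes with fewer and the 12.9% with more. Of 9 activators, 7 had an end peak in the intermediate, iPSC and ESC and 8 in MEF. Furin, a convertase that activates membrane-type MMPs, had an end peak in MEF alone. By number of peaks 3 of the 9 had fewer in the intermediate than in MEF and 1 more. Plau, which encodes urokinase, had 2 peaks in the intermediate, 4 in iPSC, 3 in ESC and 13 in MEF, and the membrane protease gene St14 had 19, 16, 14 and 4. Of 6 other inhibitors 3 had fewer and 0 more. Of 6 ADAMTS-like and papilin genes 3 had fewer and 0 more, and Adamtsl2 had 0, 0, 0 and 17. Of 10 ADAM and astacin proteases 4 had fewer and 0 more, with 6, 17, 12 and 37 at Adam12. Of 12 substrate genes 4 had fewer and 0 more.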

How the data were processed

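The 4 ATAC-seq libraries were represented by 1 deposited peak list each. Per the submitters' processing notes, the tools were Bowtie2, Picard, CASAVA 1.8.2 and MACS 1.4.2-1 and the build was mm10, with no role or setting stated for any of them. Per the file headers, the authors deposited the height of each peak, a signal in whole numbers of at least 5 with no stated scaling. Heights were therefore ranked only within a list. Heights of different libraries printed side by side do not measure a difference between them. The authors' calling and dividing of peaks sets every count. Gene bodies came from RefSeq (GRCm38.p6, which mm10 names), without exons. Strand and promoters came from the RefSeq promoter table. Peaks were counted with pandas 2.3.3 and numpy 2.4.6 over and within 20 kb of gene bodies and within 1 kb of their ends, and an overlap was at least 1 bp. Counting was tested on simulated data. Calls were made across all protein-coding genes, with 1 added to each count of peaks. The members and lists were chosen with earlier results of these data known. Genes named are those that lost or gained an end peak or differed in number of peaks between the intermediate and MEF, the TIMP genes and, for positions, the 12 with most peaks; others were named after their values were seen. Alternatives were joined sub-peaks, heights of at least 10, the taller 50% of peaks, lists of equal length, other windows, an overlap of 50% of the shorter peak, end windows free of other genes and nearest-gene counts.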

Additional observations from a re-analysis of the deposited data

How the results depend on the processing

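No paired analysis was possible because each population has 1 library. Under 11 alternatives 204 of 227 recomputed values stayed within 1.5 times the reported count or inside the reported interval, and the cause of the others was not tested unless the window or list itself sets the count. The share of each list at the 45 genes follows the window: within 5 kb it was 0.199% in the intermediate, 0.177% in iPSC, 0.172% in ESC and 0.290% in MEF, and within 50 kb 0.436, 0.371, 0.425 and 0.523%. After joining sub-peaks it was 0.276% in the intermediate, 0.228% in iPSC, 0.237% in ESC and 0.329% in MEF, a narrower gap between the intermediate and MEF than reported. Genes with fewer peaks in iPSC than in MEF numbered 8 after joining (15.5% of all genes) and 11 with lists of equal length (20.4%). Within 50 kb, 8 genes had more peaks in the intermediate than in MEF, 5 more in ESC than in MEF and 3 fewer in the intermediate than in iPSC, and within 5 kb 11 had more in the intermediate than in ESC. With the taller 50% of peaks 7 genes had lost an end peak in the intermediate relative to iPSC and 6 relative to ESC. With an end window of 2.5 kb 5 had lost one relative to ESC and 5 had gained one in ESC over MEF; with 0.5 kb 2 had gained one in the intermediate over ESC. Requiring 50% of the shorter peak, 30.3% of MEF peaks overlapped the intermediate, 27.7% iPSC and 30.5% ESC. Of 140 recomputed log2 ratios of the 20 genes called between the intermediate and MEF, 103 moved by less than 1.5 times and 2 reversed, both within 50 kb: Mmp21 at -0.14 and Mmp12 at 1.32. Depth is unknown and limits what a missing peak can show, and 1 library per population leaves every difference without a replicate check.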

Other observations

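Timp1, the fourth inhibitor gene, lies on the X chromosome (20870166 to 20874737) and so falls outside the rule used above. It had 7 peaks within 20 kb in the intermediate, 5 in iPSC, 3 in ESC and 6 in MEF. End peaks were listed in all 4 libraries, 7 in the intermediate with a tallest height of 132, 4 in iPSC with 180, 2 in ESC with 92 and 2 in MEF with 119. Unlike at Timp2 and Timp3, the number of peaks in MEF did not exceed that in the intermediate.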
